A study of Mus musculus with 2 samples.

Results

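The 10 genes studied here mark or maintain the pluripotent state of mouse embryonic stem (ES) cells, and their RNA was measured in neurospheres made from such cells. They were Pou5f1, Nanog, Esrrb, Klf2, Klf4, Zfp42, Dppa4, Dppa5a, Dnmt3l and Tdgf1. A probe belonged to the set when it was not a control probe and carried one of these names on both arrays. This gave 15 probes for 10 genes, out of 55674 probes for 36493 genes in all, after 7 probes with no spot free of an outlier flag were left out. One probe measured each of 7 genes, Nanog had 2 probes, and Dppa4 and Tdgf1 had 3 each.

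Neural stem and progenitor cells (NSPCs) had been made from mouse ES cells by way of embryoid bodies and grown as floating spheres. Both samples were tertiary neurospheres of passage 2, taken 18 days into culture after the embryoid body stage. The control group is labelled control_OE, a control for overexpression, and the other group, miR-153_OE, overexpressed the microRNA miR-153. Each of the 2 groups had 1 array, hybridised with Cy3-labelled RNA made from 50 ng of total RNA. The labels used here give no ES cell line, vector, promoter or number of pooled cultures, and they do not say which arm of the miR-153 hairpin was intended. RefSeq lists the mature mouse microRNA mmu-miR-153-3p at chr12:117250860-117250881 on the plus strand of GRCm38.p6. Its sequence is printed with the seed, bases 2 to 8, in capitals because this is the agent that separates the groups.
mmu-miR-153-3p: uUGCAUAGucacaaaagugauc

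Pluripotency rests on a core of transcription factors, among them Pou5f1 (Oct4) and Nanog, that hold one another and many ES cell genes active. A further tier that includes Esrrb, Klf2 and Klf4 sustains the naive state of the early epiblast, downstream of leukaemia inhibitory factor (LIF) and of inhibition of the kinase GSK3. On neural differentiation the core factors are normally switched off, while Sox2 is kept by neural stem cells. Several of the 10 genes also have roles outside ES cells. Klf4 acts in epithelia, Klf2 in blood vessels and lymphocytes, Esrrb in trophoblast, and Dnmt3l in germ cells.

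Signals were scanner intensities after background subtraction. A level is log2 of the signal minus log2 of the array's 75th percentile, and a difference is miR-153 minus control throughout. The ± after a signal is the error that the scanner software gives for that spot, and the ± after a difference is the SD that follows from those errors. The error describes 1 spot on 1 array and the SD 1 spot on each array, and neither says anything about the spread between cultures. With 1 array per group there is no replicate check and no test of any difference. The share of spots well above background was 52.5% for the control and 55.6% for miR-153, out of 59305 non-control spots each. The 75th percentiles were 435 and 549 intensity units, the median backgrounds 42 and 41.5, and 0 spots were saturated. In the control neurospheres and the miR-153 neurospheres alike, all 14 listed NSPC markers were well above background, with a summed linear level of 805 and 834 times the 75th percentile.

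Of the 10 pluripotency genes, 7 were well above background on both arrays, judged by the brightest probe of each. The share among all 36493 genes was 56.1%. Of those, 4, namely Esrrb, Klf4, Dppa5a and Dnmt3l, lay at least 2-fold below the control on the miR-153 array, a rule of size that 11.1% of all 20477 genes measured on both arrays also met. None of the 7 was at least 2-fold higher, against 9.22% of all genes. With spike-in scaling the shares of all genes became 7.54% lower and 13.8% higher. The median difference was -1.16 for the 7 genes and -0.11 for all genes. Pou5f1 passed this flag with miR-153 alone, and Zfp42 and Dppa4 passed it on neither array. By the scanner software's weaker flag, a signal positive and significant over background, all 10 genes were detected on both arrays, as were 70.3% of all genes.

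**Figure D1:**
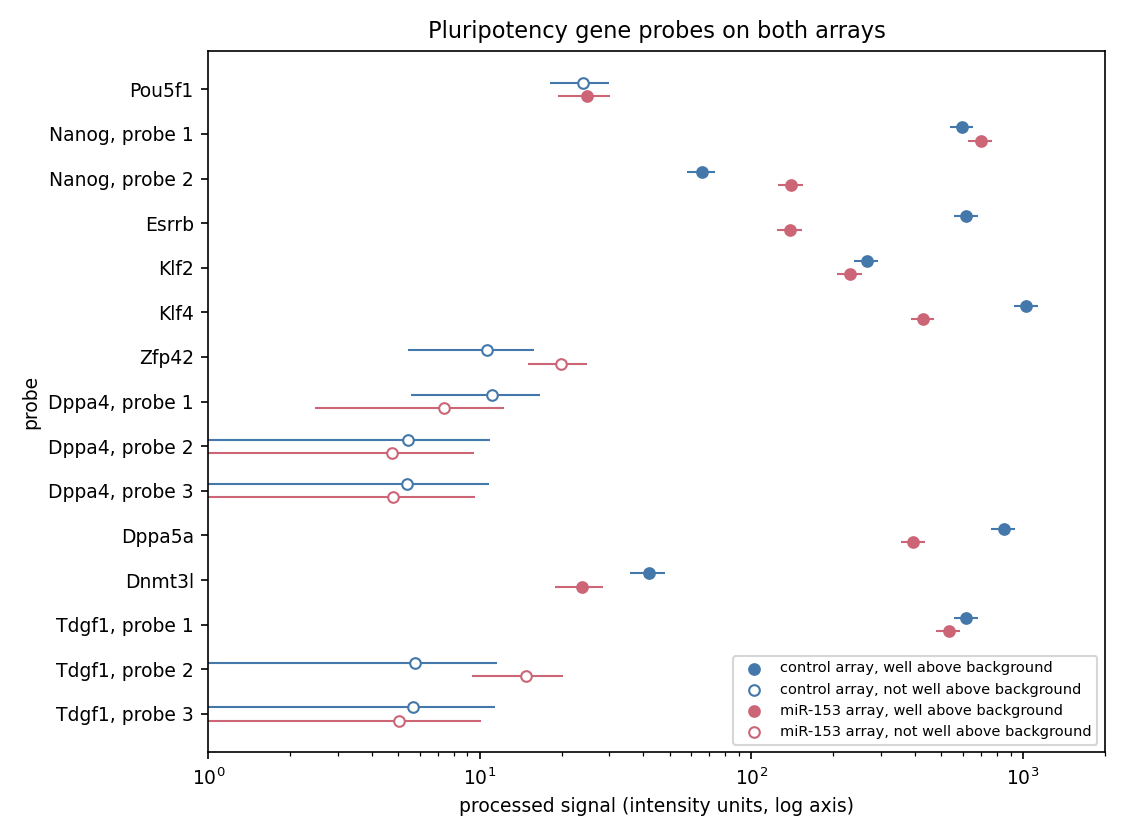
Processed signal of all 15 probes on a log axis, in intensity units, for the control array (blue) and the miR-153 array (red), with filled circles for spots well above background, open circles for the others, and lines for the error of the single spot (cut at 1 unit). Esrrb, Klf4, Dppa5a and Dnmt3l lie lower on the miR-153 array, and the signals of Zfp42 and all probes of Dppa4 reach at most 19.9 units.

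Some of these signals depend strongly on which probe is read, and the probe sequences show a difference between them. A stretch from each of the probes for Nanog and Tdgf1 is printed because probes for the same gene gave unlike signals. Each probe is 60 bases long, and a stretch of 30 bases is shown from the strand printed on the array. Capitals mark bases that lie in a run of 16 bases found, on either strand, in the RefSeq promoter windows of at least 2 other genes.
Nanog probe 1, bases 1 to 30: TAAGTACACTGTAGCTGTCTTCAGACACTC
Nanog probe 2, bases 1 to 30: ccatgatgaaccgatgccagctggactagt
Tdgf1 probe 1, bases 22 to 51: gggagAAAAAAGAGAGAGAGAGAAGAAAAA
Tdgf1 probe 2, bases 1 to 30: tgatgctcacagtgaatccctaatgttacc
Tdgf1 probe 3, bases 1 to 30: gttattattaaatcccagtgtgcaactgga
Over the whole of Nanog probe 1, 51 of its 60 bases are in capitals. Over the whole of Tdgf1 probe 1 the number is 25, in a run made of A and G only. The other 3 probes have 0.

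Nanog probe 1 shares a run of 16 bases, on either strand, with the promoter windows of 76 other genes and with 14 other probes of the array. Tdgf1 probe 1 shares one with the promoters of 27 other genes and with 7 other probes. The remaining 13 probes each share with the promoter of at most 1 other gene. Over the array, 90.7% of 55681 probes, those 7 included, share with 0 or 1 other gene, and 858 (1.54%) share with 10 or more, as Nanog probe 1 and Tdgf1 probe 1 do. The windows searched run from 250 bases before to 50 bases after the start, 32851 windows of 27025 genes on GRCm38.p6. All runs, those between probes included, were matched on either strand, and the strand of each match was not examined. This comparison of sequences was chosen after the signals had been seen.

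**Figure D2:**
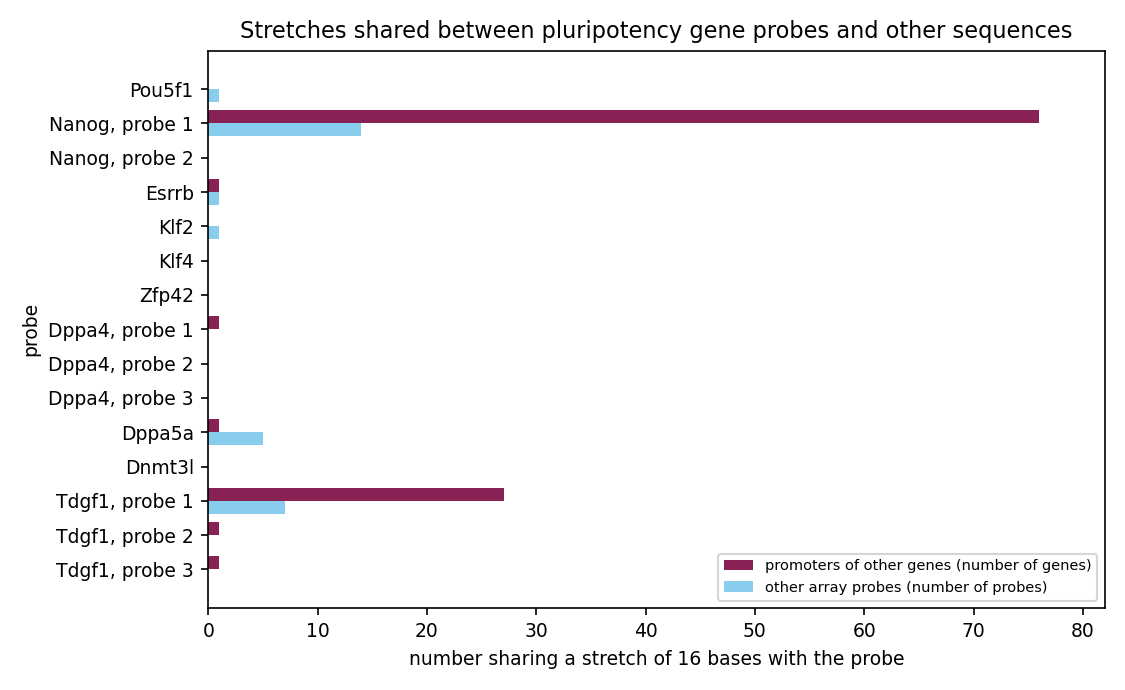
Number of other genes whose promoter window (dark bars) and number of other array probes (light bars) hold, on either strand, a run of 16 bases found in each of the 15 probes. Nanog probe 1 reaches 76 genes and 14 probes and Tdgf1 probe 1 reaches 27 genes and 7 probes, while each of the other 13 probes reaches at most 1 gene.

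Of the core factors, Pou5f1 encodes Oct4, the POU-domain protein that inner cells of the blastocyst need to be pluripotent. Its probe, at chr17:35647280-35647340 on mm9, the mouse build of all probe positions given, gave 24.0 ± 5.86 units on the control array against 24.7 ± 5.33 with miR-153. These are dim signals that overlap within their errors. The spot passed the well-above-background flag with miR-153 alone and was positive and significant on both arrays. On the scaled levels the value was -4.18 on the control array against -4.47 with miR-153, so no difference in favour of the array with the flag is shown. The probe begins aagtattgagtattcccaacgagaagagta, shown to identify it, and shares no run of 16 bases with the promoter of another gene.

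Nanog encodes the homeodomain factor that stabilises the ES cell state. Probe 1, at chr6:122663676-122663735, gave 596 ± 59.8 units on the control array against 699 ± 70.0 with miR-153. The levels were 0.45 and 0.35, and the difference was -0.11 ± 0.20. A lower difference was found in 50.0% of all genes measured on both arrays, so on this probe Nanog sat at the middle of those genes. Scaling on spike-in RNA turned the sign, to 0.13.

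Nanog probe 2, 854 bases further along at chr6:122664590-122664649, gave 65.6 ± 7.91 and 140 ± 14.5 units. Its level was -2.73 on the control array against -1.97 with miR-153, a difference of 0.76 ± 0.23. That difference ranged from 0.38 with normexp background correction to 1.0 with spike-in scaling. The probes for Nanog thus gave signs that did not match, and for different probes of a gene the SD of the difference was 0.46 over 3445 genes of the array.

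Another probe in the same stretch of chromosome 6 carries the name Nanogpd. It lies at chr6:122663514-122663573, 102 bases from Nanog probe 1, and gave 13.8 and 13.2 units, well above background on neither array. All 14 probes that share a run with Nanog probe 1, on either strand, were well above background on both arrays. Their medians were 164000 units on the control array against 163000 with miR-153. Their signals ran from 45.6 to 222000 on the control array and from 29.6 to 229000 on the miR-153 array. Of the 14, 12 exceeded 80000 units on both arrays, against 0.492% of all probes. Short interspersed repeats of the mouse genome occur in the ends of many transcripts. The part of such shared sequence in the signal of Nanog probe 1 was not tested.

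Of the naive-state factors, Esrrb had the largest difference among the 7 genes measured on both arrays. It encodes an orphan nuclear receptor, related to the oestrogen receptors, that supports ES cell self-renewal. Its probe, at chr12:87862509-87862568, gave 618 ± 62.0 units on the control array against 139 ± 14.6 with miR-153. Signals this far apart do not overlap within their errors. The level was 0.51 against -1.98, a difference of -2.48 ± 0.21 or 5.59-fold lower. Only 1.01% of all genes measured on both arrays had a lower difference. The alternatives tried for single genes gave -2.50 to -2.04. The probe begins catgccctgggattatctcccatccagtcc, shown because it carries the largest difference, and it shares a run of 16 bases with the promoter of 1 other gene and with 1 other probe, for Rnf152, which gave 68.1 and 271.0 units.

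Klf4, a zinc finger factor used with Oct4, Sox2 and Myc to reprogram somatic cells, was also lower on the miR-153 array. The probe at chr4:55540167-55540226, on the minus strand, gave 1030 ± 103 units on the control array against 429 ± 43.1 with miR-153. The level was 1.24 against -0.36, and the difference was -1.60 ± 0.20, or 3.02-fold lower. A lower difference was found in 4.23% of genes, and the alternatives gave -1.63 to -1.36. This probe, which begins gtttattcccaagtatgcctttaagcagaa, shares no run with another promoter or probe, and its signal was well clear of background on both arrays.

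Klf2, a close relative of Klf4 that acts with it in naive ES cells, differed less. Its probe at chr8:74845137-74845196 gave 266 ± 27.2 and 231 ± 23.6 units, which overlap within their errors before scaling. The level was -0.71 on the control array against -1.25 with miR-153, and the difference was -0.54 ± 0.21. It stayed under 2-fold, between -0.54 and -0.30, under all alternatives tried for single genes. In 26.6% of genes the difference was lower.

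Among the marker genes, Dppa5a encodes a small RNA-binding protein of ES cells and early germ cells. Its probe at chr9:78214866-78214925, on the minus strand, gave 850 ± 85.1 units on the control array against 395 ± 39.7 with miR-153. The level was 0.97 against -0.48, and the difference was -1.44 ± 0.20, or 2.72-fold lower. The alternatives gave -1.48 to -1.21. The probe shares a run of 16 bases, on either strand, with the promoter of 1 other gene and with 5 other probes. Of these probes, 4 were well above background on each array. They gave 172.4, 560.4, 4528.9 and 6588.9 units on the control array against 228.3, 397.1, 6767.1 and 10080.5 with miR-153. The part of the shared runs in the signal of the Dppa5a probe was not tested.

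Zfp42 (Rex1), a zinc finger gene widely used to report the naive state, had signals near background. Its probe at chr8:44380667-44380726 gave 10.6 ± 5.16 and 19.9 ± 4.87 units. Neither spot was well above background, though both were flagged as positive and significant over it, so no fold is given. Dppa4, which encodes a chromatin-associated protein of pluripotent cells, was likewise not well above background on any of its 3 probes. Probe 1, at chr16:48294346-48294405, gave 11.1 and 7.37 units, positive and significant on both arrays. The other Dppa4 probes, one at chr16:48291368-48291427 and one listed across chr16:48293216-48293867, gave between 4.75 and 5.43 units. Those are surrogate values that the software sets for a spot not distinct from background. Such values are no measurement of change: 12507 probes had one on both arrays, and their median difference was -0.51 with 5th and 95th percentiles of -0.54 and -0.48.

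Dnmt3l encodes a catalytically inactive partner that stimulates the de novo DNA methyltransferases. Its probe at chr10:77526112-77526171 was dim but well above background on both arrays, at 41.9 ± 6.34 units on the control array against 23.7 ± 4.80 with miR-153. The level was -3.38 against -4.53, and the difference was -1.16 ± 0.36, or 2.23-fold lower. It was under 2-fold in 3 of the 10 alternatives, with -0.60 under normexp correction, -0.81 under lowess and -0.92 under spike-in scaling. Some of the 10 could only repeat -1.16 for this gene: the deposited values, outlier spots kept, mean over probes and removal of shared probes. The SD from the spot errors reaches under 2-fold as well.

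Tdgf1 (Cripto) encodes a cell-surface co-receptor for the TGF-beta family ligand Nodal. Probe 1, at chr9:110842722-110842781 on the minus strand, gave 619 ± 62.1 units on the control array against 532 ± 53.3 with miR-153. The level was 0.51 against -0.05, and the difference was -0.55 ± 0.20. Probe 3, only 84 bases away at chr9:110842866-110842925, gave surrogate values of 5.66 and 5.02 units. Probe 2, a further 173 bases on at chr9:110843099-110843158, gave 5.79 units and 14.8 ± 5.44 units, and both probes were at or near background on both arrays. Only probe 1 therefore puts Tdgf1 among the genes measured on both arrays. All 7 probes that share a run with probe 1 were well above background on both arrays, from 131 to 24400 units on the control array and from 139 to 24500 on the miR-153 array. The part of the shared run in the signal of probe 1 was not tested.

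Array-wide, 83.4% of the 858 shared probes were well above background on both arrays, against 48.8% of the other probes. Genes were then taken that had both kinds among the probes named by a RefSeq accession. Of these 228 genes, 50 were well above background on both arrays by a shared probe alone and 4 by another probe alone. A further 161 were so by both kinds and 13 by neither. The kinds were defined after the signals had been seen, and the numbers of probes of each kind per gene were not matched. A cause of these contrasts was not tested. Tdgf1 belongs to the 50. Nanog is not among the 228 genes, because its probe 2 carries no RefSeq accession. Left without shared probes, 6 pluripotency genes remained well above background on both arrays, 4 of them at least 2-fold lower, with a median difference of -1.30. Shared here means sharing with the promoters of 10 or more other genes. The Dppa5a, Esrrb and Klf2 probes, which share runs with other array probes, were therefore kept.

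**Figure D3:**
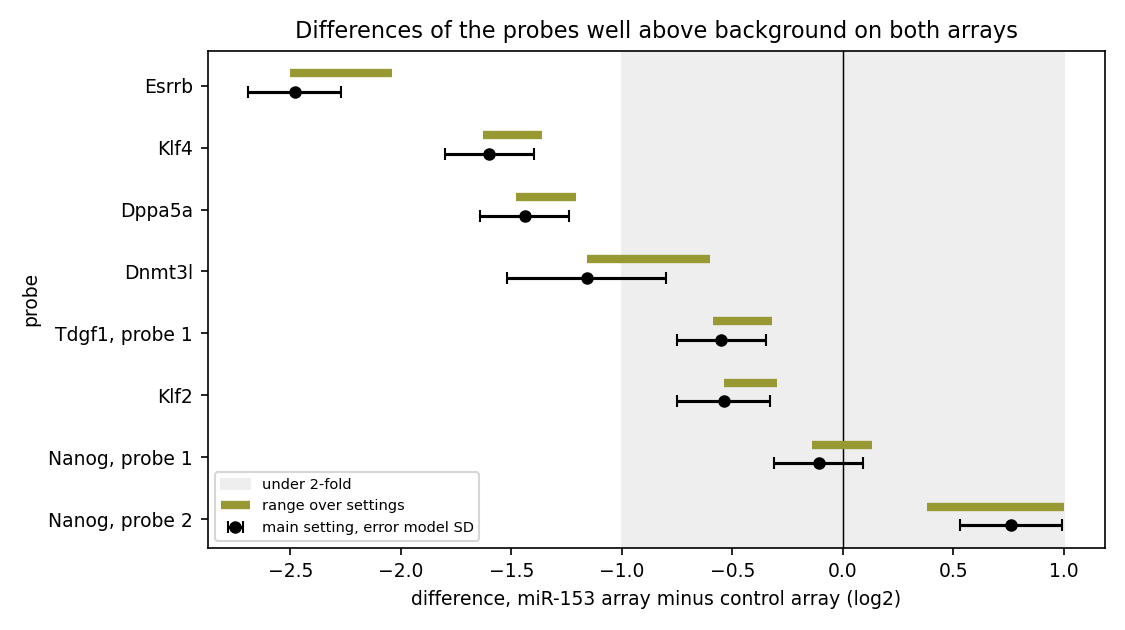
Difference of the 8 probes well above background on both arrays, on the log2 scale, miR-153 minus control, with the error model's SD of the single spots (black) and the range over the main setting and its alternatives (olive). Esrrb, Klf4 and Dppa5a stay beyond 2-fold (outside the grey band) throughout, Dnmt3l reaches into the band at -0.60, and both Nanog probes lie within it, at -0.11 and 0.76.

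The values just beside the 2-fold rule were those of Dnmt3l inside it, at -1.16, and of Tdgf1 and Klf2 outside it, at -0.55 and -0.54. With a 1.5-fold rule the count stayed at 4 of 7, beside 24.6% of all genes lower and 18.6% higher, and with a 3-fold rule it was 2, Esrrb and Klf4, beside 4.29% lower and 3.15% higher. By neither rule was any of the 7 higher. For probes with repeat spots, the SD of the miR-153 minus control difference over those spots had a median of 0.075 over 263 probes. Other measures of spread were wider. The SD between probes of a gene was 0.46, and the SD from spot errors was 0.36 for Dnmt3l, 0.20 for Tdgf1 and 0.21 for Klf2. None of the 10 genes had repeat spots.

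The other genes of the naive network were mixed in direction. Of 15 listed naive regulators, 12 were well above background on both arrays, 1 was at least 2-fold higher, 1 at least 2-fold lower and 10 in between. Their median was -0.02, which spike-in scaling turned to 0.21. Mybl2, a regulator of the cell cycle in many dividing cells, was lower (2.65 to 0.35, difference -2.30), and Sall1, a zinc finger gene that neural progenitors also express, was higher (1.41). Klf5, which acts in naive cells beside Klf2 and Klf4, had -0.04, and 0.20 under spike-in scaling.

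Among 25 other ES cell marker genes, only 12 were well above background on both arrays, with 1 higher, 2 lower, 9 in between and a median of -0.42. A further 11 were well above background on neither array, Dppa2 and Dppa3 among them. Cdh1, the epithelial cadherin that holds ES cell colonies together, was higher on the miR-153 array (-3.10 to -0.71, difference 2.39). Trap1a had -1.59 but -0.75 under normexp correction, and Jam2, a junction protein gene, had -1.35 with its other probes reaching -0.12. Zfp296, a zinc finger gene of ES cells, passed that flag with the control alone, where it was at least 2.32-fold higher, with a difference of -0.62 under normexp correction. Fgf4, the growth factor that ES cells secrete, was at least 1.69-fold higher there (-0.30 under normexp correction), and Nr0b1, an orphan receptor of naive cells, at least 1.77-fold (-0.41). These last 2 were picked out after their values were seen. Lin28a, an RNA-binding protein gene of ES cells and early neural progenitors, had -0.16, and 0.08 under spike-in scaling.

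Genes of the formative and primed states, which ES cells enter before lineage choice, had a median of 0.43, the highest of the lists plotted. Of 16 listed, 12 were measured on both arrays, with 2 at least 2-fold higher, 0 lower and 10 in between. The higher genes were Fgf5 (1.34, but 0.52 under normexp correction) and Zic2 (1.24), a zinc finger gene also of the neural tube. Lefty1, a Nodal inhibitor, was at least 2.17-fold higher on the control array, with a difference of -0.65 under normexp correction.

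Factors that ES cells share with neural stem cells were all measured: 14 of 14 were well above background on both arrays, with a median of 0.22. Sox2, the partner of Oct4 that neural stem cells keep, had a level of 3.29 on the control array against 3.58 with miR-153, a difference of 0.29 that is well under 2-fold. Mycn was at least 2-fold higher (1.56), Sall3 at least 2-fold lower (-1.54), and 12 lay in between.

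The families and pathways around single genes were mixed. In the Krüppel-like factor family, apart from Klf2 and Klf4, 12 of 15 genes were measured on both arrays, 2 were higher, 1 lower and 9 in between, with a median of -0.27. Klf8 had 1.53 and Klf11 1.03 (0.50 under normexp correction), while Klf13 had -1.23 (-0.99 under spike-in scaling). Of the oestrogen-related and related receptors beside Esrrb, 4 of 6 were measured on both arrays, with a median of -0.05 that spike-in scaling turned to 0.19. Esrra had -0.40 and Esrrg 1.02 (0.52 under normexp correction). Nr6a1, the germ cell nuclear factor that represses Pou5f1 in differentiating cells, was at least 2.65-fold higher with miR-153, but its difference under normexp correction was 0.27.

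The list for the LIF pathway, which feeds Klf4 and Esrrb in ES cells, also held Gsk3b, Ctnnb1 and Tcf7l1 of the GSK3 branch. Of its 13 genes, 11 were measured on both arrays. By the 2-fold rule 2 were higher and 0 lower, and the median was 0.15. Socs3, a feedback inhibitor that STAT3 induces, had a level of 0.85 on the control array against 3.53 with miR-153, a difference of 2.68. Il6st, the shared receptor chain gp130, had 1.09. Lifr, the LIF receptor chain, had -0.79, Pim1 -0.73 and Stat3, the pathway's transcription factor, -0.58, all under 2-fold. These were the only genes of the list measured on both arrays that lay below 0. The remaining ones, apart from Socs3 and Il6st, ran from 0.13 (Jak2) to 0.52 (Tcf7l1).

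Among the DNA methyltransferases and partners of Dnmt3l, 9 of the 10 listed were found on the array and all 9 were measured on both. None was at least 2-fold higher and 2 were lower, with a median of -0.24 that became 0.19 with the mean over probes. The lower genes were Uhrf1 (-2.14), which brings the maintenance enzyme to replicated DNA, and Dnmt1 (-1.11, -0.87 under spike-in scaling), that enzyme itself. The enzymes that Dnmt3l stimulates had 0.73 (Dnmt3a) and -0.56 (Dnmt3b), both under 2-fold. In the Nodal pathway around Tdgf1, 12 of 17 genes were measured on both arrays, 1 was higher, 0 were lower, and the median was 0.23. The higher gene was Acvr2b (1.06), an activin receptor. In the Dppa family, 3 of 4 listed genes were found on the array and none was well above background.

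**Figure D4:**
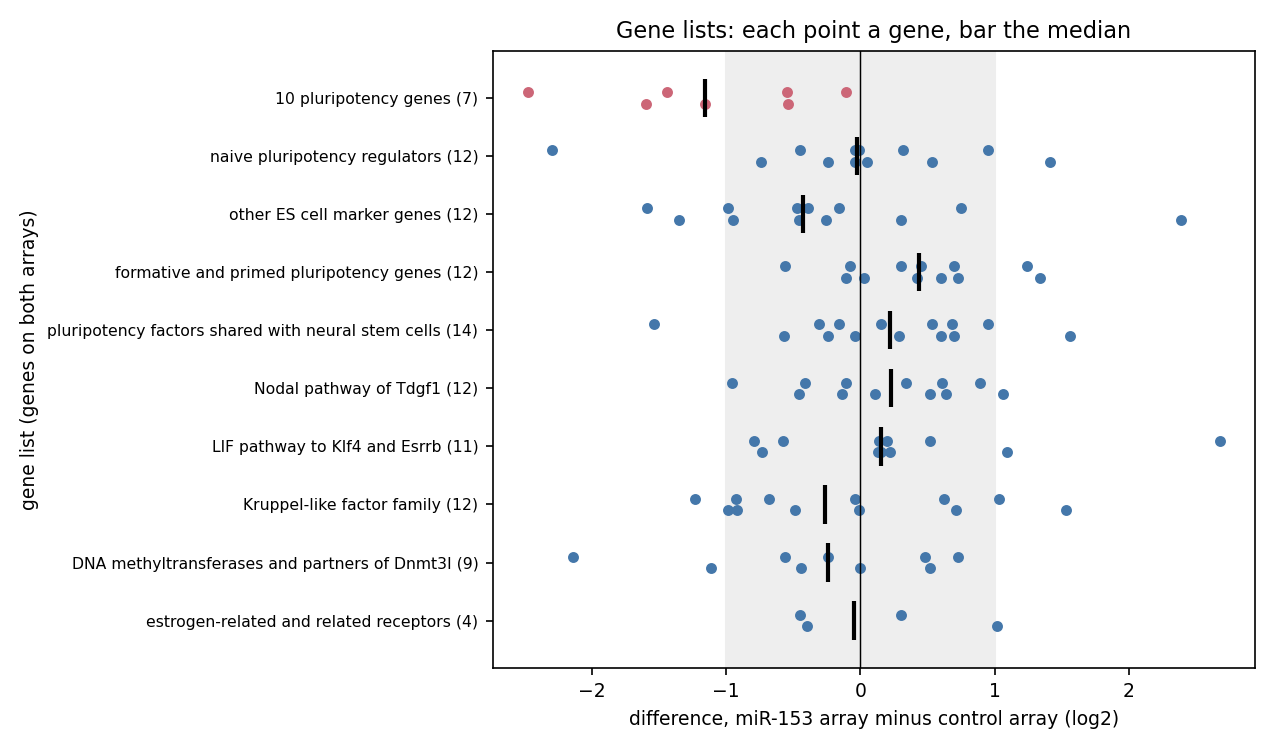
Difference (log2, miR-153 array minus control array) of each gene well above background on both arrays, for the 7 pluripotency genes (red) and 9 gene lists around them (blue), with a black bar at each median and grey for under 2-fold. The 7 genes have a median of -1.16, and the list medians run from -0.42 (other ES cell markers) to 0.43 (formative and primed genes).

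A level in these samples is an average over all cells, so fewer cells of a type and less RNA per cell cannot be told apart. Of 12 ES cell markers, 5 were well above background on both arrays, 2 on the control array only, 1 on the miR-153 array only and 4 on neither. Their summed linear level was 5.65 times the 75th percentile on the control array against 3.66 with miR-153, and 5 of the 12 are among the 10 pluripotency genes. Dppa5a alone gave 1.95 of the control sum and 0.719 of the miR-153 sum. The sums also take in Nanog (levels 0.45 on the control array and 0.35 with miR-153) and Tdgf1 (0.51 and -0.05). Both were read by the probe 1 that shares runs with many promoters, so these sums may not be ES cell RNA alone. The 7 markers outside the 10 genes summed to 0.822 and 0.62. Markers of other cells that use the same genes were read as well. Of 10 trophoblast markers, 5 were measured on both arrays. Ascl2 was lower (-2.61) and Gata3 higher (2.80), and the sums were 2.35 and 5.70. The miR-153 sum rests largely on Gata3, at a level of 2.31. Of 11 endothelial markers, 5 were measured on both, and the sums were 18.3 on the control array against 11.4 with miR-153. Both sums rest largely on Kdr, with levels of 4.05 and 3.37 and a difference of -0.68, under 2-fold. Flt1, a VEGF receptor, had -2.32 with its other probe at -0.54, and Thbd was at least 2.16-fold higher on the control array (-0.57 under normexp correction). Of 9 surface epithelium markers, 7 were measured on both, with sums of 9.66 and 10.6 that rest largely on Trp63 (levels 3.16 and 3.23). Those levels are from the brightest of 4 Trp63 probes, whose differences ran from -1.51 to 1.51. Of 11 germ cell markers, 3 were measured on both, with sums of 2.45 and 4.22 that rest largely on Nanos3 (levels 0.91 and 1.85). The part of these other cell types in the differences of Esrrb, Klf2, Klf4 and Dnmt3l was not tested.

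RefSeq promoter windows were found for 8 of the 10 genes, 13 windows in all. The octamer ATGCAAAT, the letters that POU factors such as Oct4 read, was present on either strand in 1 of the 13 windows and in 1.74% of all windows. It lies at position -186 from the start of Zfp42, at chr8:43307188-43307195 of GRCm38.p6. Zfp42 is on the minus strand, where the match reads ATTTGCAT, the reverse complement of the octamer. The match is printed in capitals in its surroundings because Zfp42 is a reporter of the naive state.
Zfp42 promoter: tctgaagaggcATTTGCATaactgagcaag
The letters GGGNGTGG, of the kind that Krüppel-like factors read, were present in 7 of the 13 windows, of 5 genes, and in 17.6% of all windows. Both Nanog windows overlap and hold the same sites, which the count of windows takes in each. The 5 genes were Dnmt3l, Nanog, Pou5f1, Tdgf1 and Zfp42. Tdgf1 has the same match at positions -26 and -45 from its start, and Nanog has one at -10.
Tdgf1 promoter, position -26: ggccccgtaatGGGCGTGGggccccgtctc
Tdgf1 promoter, position -45: ggcctagtaatGGGCGTGGggccccgtaat
Nanog promoter, position -10: cagggctggtgGGGCGTGGgtgccgcctgg
The letters TCAAGGTCA, read by Esrrb, were in none of the 13 windows and in 0.423% of all windows.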

How the data were processed

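The authors deposited 1-colour Agilent scanner files with intensity values. The submitters' processing notes name Agilent Feature Extraction, version 10.7.3.1, as the software. Both arrays lay on 1 slide. The deposited value table holds the processed intensity divided by 381 (control) or 485 (miR-153), uncentred and linear (medians 0.0662 and 0.0614). It was an alternative source, and 0 of its columns belonged to other samples. Signals were divided by the 75th percentile of non-control spots and taken to log2. Spots flagged as outliers (229) were left out and repeat spots averaged. The brightest probe stood for a gene. RefSeq accessions (GRCm38.p6, names only) named 26296 probes (47.2%), and the others kept the file's name. Probe positions are those in the files, on mm9. Exon and UTR annotation of that build was not used here.

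For a gene well above background on 1 array, the bound sets it against the higher of its own level and the lowest level well above background on the other array (-4.34 control, -4.94 miR-153). The members and lists were chosen with earlier results of these data known. Named were all 10 members, 10 fixed genes, up to 4 genes per list at least 2-fold apart, and genes with a bound of at least 2-fold. Some others were named outside this rule, among them Fgf4, Nr0b1, Lifr, Pim1, Stat3, Jak2, Tcf7l1, Kdr, Trp63 and Nanos3. Alternatives were normexp (limma 3.58.1, R 4.3.3, offset 50), quantile, spike-in, median and lowess scaling, other percentiles, filters, probe rules and fold rules. The calculation was tested on simulated data (Python 3.11.15).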

Additional observations from a re-analysis of the deposited data

How the results depend on the processing

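Under all 14 alternatives, 0 of the pluripotency genes were at least 2-fold higher, which the 3-fold rule could not change. By the fold rule of each setting, 3 or 4 of them were lower under 13 alternatives. Under the 3-fold rule 2 were at least 3-fold lower, while the values were those of the main setting, with 4 at least 2-fold lower. The count was 3 with normexp correction, spike-in scaling, lowess and bright probes only. The deposited values and the outlier spots kept repeated the main value of each of the 10 genes. The mean over probes and the removal of shared probes could move only genes with more than 1 probe. Ranges over alternatives for genes with 1 probe therefore rest on the other settings. The median difference of -1.16 became -0.60 with normexp correction and otherwise lay between -1.30 and -0.74. Spike-in scaling added 0.24 to every difference (median of all genes 0.13), with 7.54% of genes at least 2-fold lower and 13.8% higher. With normexp correction these were 7.47% and 5.84%. Nanog had 0.76 without its shared probe. Tdgf1 had -0.02 as the mean over probes, and without its shared probe 1.01 on a probe not well above background. No alternative that leaves out a replicate could be run, since each group has 1 array. No paired analysis was possible because each group has 1 array. Dim genes, Dnmt3l and Pou5f1 among them, are limited by their signal over background. The alternative without shared probes was chosen after seeing the data.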

Other observations

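Other cell type markers, none of them among the 10 pluripotency genes, also differed between the arrays by the 2-fold rule. Of 14 NSPC markers, 3 were higher on the miR-153 array, which were Hes5 (2.44), a Notch target, Prom1 (1.74), a surface protein of neural stem cells, and Sox1 (1.15), an early neural factor, while Nes had -0.95. Of 11 mesoderm and fibroblast markers on the array, 10 were measured on both, with 4 higher and 1 lower, among them Pdgfrb (2.08), Dcn (1.30) and Thy1 (-1.26). Of 11 endoderm markers, 6 were measured on both and 2 were higher, Foxa2 (1.44), which floor plate cells also express, and Amn (1.19, but 0.44 under normexp correction). Of 10 macrophage and microglia markers, 4 were measured on both and none passed 2-fold. Nanos2, a germ cell gene, was at least 2.06-fold higher with miR-153, but its difference under normexp correction was 0.23.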
